A study of Mus musculus with 6 samples.

Results

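The 10 genes described here form the core of polyamine metabolism: Amd1, Amd2, Odc1, Srm, Sms, Sat1, Azin1, Oaz1, Oaz2 and Smox. They were matched by symbol among the 54648 gene symbols of the deposited table, and all 10 were among the 15608 genes with enough counts to be tested. Amd2 was picked because its counts were raised in FOXO3 KO 1 and FOXO3 KO 3, so its values are given as a description with no test. Amd1 was taken as its near-identical relative, and the other 8 genes as the remaining enzymes and regulators of the pathway.

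RNA-seq was performed on peritoneal macrophages of C57BL/6 mice, 3 wild type (WT) and 3 FOXO3 knockout (FOXO3 KO), to ask what loss of the transcription factor FOXO3 changes in these cells. Males and females of 6 to 8 weeks of age were kept on standard chow, and homozygous animals were chosen by genotyping littermates. All 6 received 3% thioglycollate into the peritoneum, an irritant that draws macrophages there, and the cells were harvested 4 days later. The knockout allele, and the cells in which it is deleted, are not described further in the sources used here, and nothing ties the 6 libraries to litters, so p-values measure the spread between these libraries.

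Foxo3, the targeted gene, had 4231, 3023 and 2615 counts in WT 1, 2 and 3, but 133, 2847 and 143 counts in FOXO3 KO 1, 2 and 3. The library labelled FOXO3 KO 2 thus held Foxo3 at the WT level, and results are given with and without it. WT 3 also stood apart: Pearson's r of log2 values between it and the other libraries was 0.929 to 0.956, against 0.986 to 0.994 among the other 5. Library totals were 28083393 to 36424117 counts. Summed levels of 8 macrophage markers were 12839 to 17364 CPM (counts scaled to a common library size) in WT and 14164 to 16058 CPM in FOXO3 KO. Lyz2 made up most of each sum, at 7746 to 11429 CPM in WT and 8499 to 9779 CPM in FOXO3 KO. The sums therefore say little of the other macrophage markers, which were not all even. Adgre1 was at 794, 802 and 920 CPM in WT and at 742, 832 and 693 CPM in FOXO3 KO 1, 2 and 3. It alone of the 8 had FOXO3 KO 1 and 3 below every WT library, beside 9.24% of all tested genes. Cd68 was at 525 CPM in WT 3, against 1337 and 1472 CPM in WT 1 and 2.

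Polyamines (putrescine, spermidine and spermine) are small, positively charged molecules that bind nucleic acids and are needed for growth and translation. Ornithine decarboxylase (Odc1) makes putrescine from ornithine. S-adenosylmethionine decarboxylase (Amd1, Amd2) makes the aminopropyl donor, which spermidine synthase (Srm) and spermine synthase (Sms) add in turn. Sat1 acetylates spermidine and spermine for export or breakdown, and Smox oxidises spermine back to spermidine. Antizymes (Oaz1, Oaz2) bind ornithine decarboxylase and send it to the proteasome, whereas the antizyme inhibitor Azin1 binds antizymes in its place. In macrophages ornithine can come from arginase 1 (Arg1), a marker of alternative activation.

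Amd1 and Amd2 lie on the same chromosome as Foxo3 and differ little in sequence. In the GENCODE M21 annotation of GRCm38 (mm10), Amd1 spans chr10:40287458-40302186 on the minus strand with 8 exons in its longest coding transcript of 3204 bases. Amd2 spans chr10:35708675-35711892 on the minus strand as a single exon of 3218 bases, annotated as protein coding. The study's own gene list instead names Amd2 a pseudogene of Amd1, and no protein of it was measured here. Foxo3 lies at chr10:42181841-42276755, 6.47 Mb from Amd2 and 1.88 Mb from Amd1. The Amd1 and Amd2 transcripts were 99.6% identical, with 14 mismatches over 3204 aligned bases. Of these, 12 fell in the 3' UTR, 1 in the 5' UTR and 1 in the coding sequence of 1002 bases. The coding difference was G796C, with Amd1's base first and positions counted from 1 at the A of the start codon. It is shown because it is the only coding base that tells the copies apart; the capital marks it within coding positions 781 to 811:
Amd1: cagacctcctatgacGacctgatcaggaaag
Amd2: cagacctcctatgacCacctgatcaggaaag

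Few stretches of the transcripts tell the copies apart. Of the 3188 windows of 31 bases in the Amd2 transcript, 90.9% were also present in Amd1. Of the 3143 windows of 76 bases, the read length, 78.9% were present in Amd1 and 662 were private to Amd2. The counts of both genes therefore depend on how the authors' counting assigned shared reads, and the values of Amd2 in particular are uncertain. Counts of the 5 Amd pseudogenes in the table did not exceed 2 in any library.

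Where the transcripts are nearly identical, the DNA before them is not, and both promoters are printed to show this. They come from the RefSeq table (GRCm38.p6, minus strand) and run from 250 bases before the annotated start into the transcript. Capitals mark the beginning of a run of 48 bases identical in both, which opens 2 bases after the start of Amd1 and at the start of Amd2 (Amd1, chr10:40302159-40302438, then Amd2, chr10:35711862-35712141):
Amd1: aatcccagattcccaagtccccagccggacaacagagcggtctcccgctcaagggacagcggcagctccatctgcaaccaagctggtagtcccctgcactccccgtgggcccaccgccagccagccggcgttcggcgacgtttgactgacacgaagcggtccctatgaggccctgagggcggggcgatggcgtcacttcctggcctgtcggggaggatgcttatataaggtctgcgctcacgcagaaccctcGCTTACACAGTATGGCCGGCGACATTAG
Amd2: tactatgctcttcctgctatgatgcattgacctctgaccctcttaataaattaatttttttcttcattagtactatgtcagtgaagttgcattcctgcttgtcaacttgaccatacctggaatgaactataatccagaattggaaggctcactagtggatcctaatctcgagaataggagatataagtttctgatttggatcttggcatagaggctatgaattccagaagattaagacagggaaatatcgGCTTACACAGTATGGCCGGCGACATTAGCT

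The 250 bases before the start were 64.4% G and C in Amd1 and 37.6% in Amd2, against a median of 52.4% over 32851 promoters. Amd2's value lay at the 8.47th percentile of these promoters and Amd1's at the 82.3rd. RefSeq promoters were matched for 8 of the 10 genes (all but Srm and Azin1). The FOXO element GTAAACA, searched on both strands, was in 0 of these 8 and in 3.65% of all promoters of the table. The E-box CACGTG, the site of MYC and its partners, which reads the same on both strands and whose ends can overlap those of the FOXO element, was in 1 of the 8 (Sms) and in 7.15% of all. A match of letters is a description only.

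Amd2 was at 33, 28 and 32 counts in the WT libraries and at 320, 40 and 351 counts in FOXO3 KO 1, the library labelled FOXO3 KO 2 and FOXO3 KO 3. Scaled by library size, these were 0.91, 0.99 and 0.89 CPM in WT and 11.3, 1.46 and 10.5 CPM in FOXO3 KO. All 3 FOXO3 KO libraries were above every WT library, but FOXO3 KO 1 and 3 stood far above the library labelled FOXO3 KO 2. The WT mean was 0.93 ± 0.05 CPM and the FOXO3 KO mean 7.77 ± 5.48 CPM (SD, n = 3 each), an 8.34-fold difference. FOXO3 KO 1 and 3 alone averaged 10.9 ± 0.58 CPM (SD, n = 2), 11.7-fold above WT. The lower of these 2 libraries was 10.7-fold above the highest WT library, whereas the library labelled FOXO3 KO 2 was 1.57-fold above the WT mean. The 2 libraries high in Amd2 were those low in Foxo3, which was at 117, 107 and 73.1 CPM in WT and at 4.71, 104 and 4.29 CPM in FOXO3 KO 1, 2 and 3. On the log2(CPM + 0.5) scale, which understates the change of low genes, the difference in Amd2 was 2.15 over 6 libraries and 3.0 without the library labelled FOXO3 KO 2.

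Amd1, the 8-exon relative of Amd2, did not share this pattern. Its levels were 82.7, 98.1 and 90.7 CPM in WT and 95.7, 87.9 and 88.1 CPM in FOXO3 KO 1, 2 and 3. The groups overlapped fully, with a WT mean of 90.5 ± 7.70 CPM beside 90.6 ± 4.43 CPM for FOXO3 KO (SD, n = 3 each). The log2 fold change was 0.00 (SE 0.10, adjusted p = 0.998 by the quasi-likelihood test of edgeR, where p-values are adjusted by Benjamini-Hochberg over every gene tested). An interval of 2 SE around it ran from 0.867-fold to 1.15-fold. Without the library labelled FOXO3 KO 2 the log2 fold change was 0.02 (SE 0.14).

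Amd2 made up a small share of the counts of the pair, as the plot of both genes by library shows. The share was 1.09% in WT 1 (exact Clopper-Pearson 95% interval 0.754 to 1.53%), 0.998% in WT 2 (0.664 to 1.44%) and 0.977% in WT 3 (0.669 to 1.38%). It was 10.6% in FOXO3 KO 1 (9.52 to 11.7%), 1.63% in the library labelled FOXO3 KO 2 (1.17 to 2.22%) and 10.7% in FOXO3 KO 3 (9.63 to 11.8%). The share was thus high in the libraries for which Amd2 was picked and low in the other 4. These intervals cover counting error only, not the assignment of shared reads. Summed, Amd1 and Amd2 reached 83.6, 99.1 and 91.6 CPM in WT and 107, 89.3 and 98.6 CPM in FOXO3 KO. This sum averaged 91.4 ± 7.73 CPM over WT and 98.3 ± 8.85 CPM over FOXO3 KO (SD, n = 3 each), so the groups overlapped and Amd1 made up most of it in every library.

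**Figure D1:**
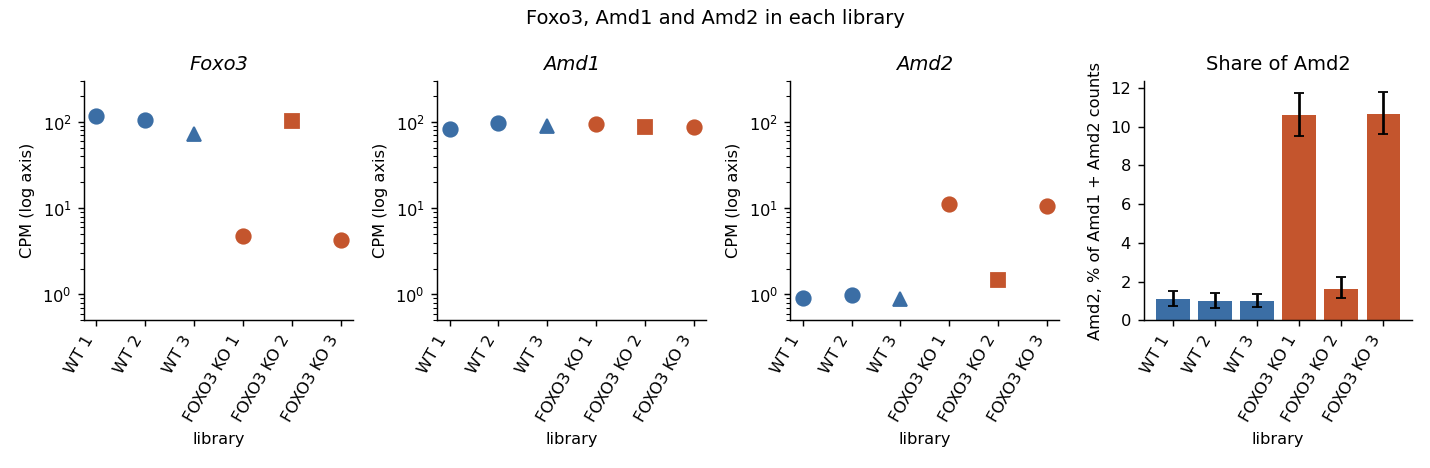
Levels of Foxo3, Amd1 and Amd2 in CPM on a log axis for each of the 6 libraries (blue WT, orange FOXO3 KO, triangle WT 3, square the library labelled FOXO3 KO 2), and the percent of Amd1 plus Amd2 counts that were Amd2 (bars, with exact 95% intervals). Amd1 lies between 82.7 and 98.1 CPM throughout, while Amd2 is at 10.5 and 11.3 CPM only where Foxo3 is at 4.29 and 4.71 CPM.

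Markers of some other cell types and of cycling cells were also higher in FOXO3 KO 1 and 3 than in WT. Summed levels of 8 neutrophil markers were 137 to 224 CPM in WT and 501, 231 and 424 CPM in FOXO3 KO 1, 2 and 3, and 5 of the 8 were above every WT library in both FOXO3 KO 1 and 3, beside 10.8% of all tested genes. Among the 5, Ly6g had at most 4 counts in any library and was not tested. S100a8 and S100a9 held a large part of the raised sums. They were at 83.2 and 164 CPM in FOXO3 KO 1 and at 59.8 and 117 CPM in FOXO3 KO 3. In WT they were at no more than 11.3 and 5.61 CPM. Retnlg, Mmp8 and Mmp9 were not above every WT library in both FOXO3 KO 1 and 3, so the sum does not stand for every neutrophil marker. Summed levels of 5 red blood cell genes were 9.63 to 27.0 CPM in WT and 117, 9.23 and 182 CPM in FOXO3 KO 1, 2 and 3, with 5 of 5 above every WT library in FOXO3 KO 1 and 3. Summed levels of 6 mesothelial and fibroblast genes were 20.6 to 32.8 CPM in WT and 53.9, 225 and 115 CPM in FOXO3 KO 1, 2 and 3. Of these genes, 5 of 6 were above every WT library in FOXO3 KO 1 and 3, and the sum was highest in the library labelled FOXO3 KO 2. Summed levels of 4 cycling markers were 58.0 to 74.0 CPM in WT and 94.5, 99.1 and 122 CPM in FOXO3 KO, with 4 of 4 above every WT library in FOXO3 KO 1 and 3. In the B cell, T cell, mast cell and eosinophil lists, 0 markers were above every WT library in both FOXO3 KO 1 and 3. Several of the neutrophil, red blood cell, mesothelial or fibroblast and cycling markers are in the list that the study drew from these libraries. Their place above WT was thus partly set by that choice. No marker of these lists was at 0 in all libraries. Their part in the level of Amd2 was not tested, and in bulk RNA more cells of a type and more RNA per cell cannot be told apart.

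The genes whose levels were most like Amd2 over the 6 libraries, by Pearson's r of log2(CPM + 0.5), were Idi1 (r = 0.992), Asprv1 (0.992), Cxcr2 (0.991), Slc25a12 (0.991) and Trem3 (0.989). Cxcr2, a chemokine receptor of neutrophils, was at 0.886, 0.882 and 0.587 CPM in WT and at 18.7, 2.23 and 14.4 CPM in FOXO3 KO 1, 2 and 3. Idi1, an enzyme of isoprenoid synthesis, moved over a narrower range, from 35.4, 35.6 and 35.8 CPM in WT to 44.4, 38.0 and 45.2 CPM in FOXO3 KO. At the other end of the order were Ypel3 (r = -0.993), Ccng2 (-0.990) and Dph1 (-0.990). Ypel3 was at 84.7 to 98.1 CPM in WT and at 29.2, 69.0 and 32.8 CPM in FOXO3 KO. Foxo3 itself had r = -0.984, rank 15600 of 15607. Amd2 was picked for its rise in FOXO3 KO 1 and 3, the libraries low in Foxo3, so a strongly negative r follows from that choice. At both ends, the order ranks genes by how they set FOXO3 KO 1 and 3 apart from the other libraries, whatever the size of the shift. Among the other polyamine genes r with Amd2 was highest for Smox (0.49), Odc1 (0.46) and Azin1 (0.42), was 0.20 for Amd1, and was lowest for Oaz2 (-0.23). The points share libraries and depth. Asprv1, Cxcr2, Ypel3 and Amd2 itself were among the genes that the study chose from these libraries, with Amd2 listed as raised in FOXO3 KO.

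The tested genes nearest to Amd2 on chromosome 10 lie over 1 Mb away. Nt5dc1 and Frk on one side were 1290 kb and 1097 kb from it, and Hdac2 and Marcks on the other 1263 kb and 1421 kb. Hdac2, a histone deacetylase, was at 51.7, 53.9 and 55.6 CPM in WT and at 56.9, 51.7 and 54.2 CPM in FOXO3 KO 1, 2 and 3. Frk, a tyrosine kinase at low level, was at 0.776, 0.882 and 0.335 CPM in WT and at 1.28, 0.766 and 1.41 CPM in FOXO3 KO. In Frk, FOXO3 KO 1 and 3 were above every WT library, beside 10.8% of all tested genes. The groups overlapped in Hdac2, Nt5dc1 and Marcks. Without the library labelled FOXO3 KO 2, log2 fold changes were 1.02 for Frk, 0.26 for Marcks, 0.05 for Nt5dc1 and 0.05 for Hdac2.

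For none of the 9 genes other than Amd2 did the difference between WT and FOXO3 KO pass edgeR's quasi-likelihood test. At an adjusted p under 0.05, 0 of 9 passed, beside 0 of all 15608 tested genes (0%). Foxo3, the targeted gene, was among those that did not pass, so 0 of 9 does not show that the 9 are unaffected. At an unadjusted p under 0.05, 0 of 9 were higher and 0 of 9 lower, beside 4.04% and 1.65% of all tested genes. DESeq2 passed 169 of 17359 genes (0.974%), DESeq2 without the library labelled FOXO3 KO 2 passed 104 of 20666 (0.503%) and limma-voom 0 of 15608 (0%), with 0 of the 9 among them. In none of the 9 did all 3 FOXO3 KO libraries lie above every WT library (7% of all tested genes) or below every one (5.36%). Counting FOXO3 KO 1 and 3 alone, 0 of the 9 were above every WT library and 0 below, beside 10.8% and 9.24% of all tested genes. The median log2 fold change was 0.00 over the 9 and -0.01 over all tested genes. Without the library labelled FOXO3 KO 2, 0 of the 9 passed at either threshold, beside 0% of 16217 tested genes at the adjusted one and 3.05% higher and 1.26% lower at the unadjusted one. Without WT 3, 0 of the 9 passed at either threshold, beside 0% of 15788 tested genes at the adjusted one and 6.15% higher and 2.25% lower at the unadjusted one.

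Odc1, the first enzyme of the pathway, was steady over the 6 libraries. Its levels were 55.5, 61.7 and 65.7 CPM in WT and 70.4, 67.2 and 62.7 CPM in FOXO3 KO 1, 2 and 3. FOXO3 KO 1 and the library labelled FOXO3 KO 2 were above every WT library, but FOXO3 KO 3 was not. The log2 fold change was 0.13 (SE 0.10, adjusted p = 0.854, edgeR), an interval of 0.950-fold to 1.26-fold at 2 SE. Without WT 3 it was 0.20 (SE 0.09).

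The antizymes and their inhibitor, which set how long ornithine decarboxylase lasts, were among the more abundant genes. Oaz1 was at 231, 273 and 218 CPM in WT and at 252, 233 and 234 CPM in FOXO3 KO. Oaz2 was at 59.6, 66.4 and 42.4 CPM in WT and at 52.9, 60.9 and 50.8 CPM in FOXO3 KO. Both sets of groups overlapped, and in each antizyme WT 3 was the lowest of the 6 libraries. Azin1 was at 229, 265 and 140 CPM in WT and at 295, 257 and 228 CPM in FOXO3 KO. WT 3 was again the lowest, and the other WT libraries lay within the FOXO3 KO range. Log2 fold changes were -0.01 (SE 0.13) for Oaz1, -0.03 (SE 0.18) for Oaz2 and 0.30 (SE 0.25) for Azin1, with adjusted p of 0.993, 0.976 and 0.856 in edgeR's quasi-likelihood test. Without WT 3 the values were 0.08 (SE 0.13) for Azin1 and -0.19 (SE 0.10) for Oaz2.

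The synthases that lengthen the chain did not move together. Srm was at 13.2, 13.9 and 24.2 CPM in WT and at 16.1, 13.6 and 16.8 CPM in FOXO3 KO. It was the only one of the 10 genes that was highest in WT 3, at 1.79 times the mean of WT 1 and 2. Sms was at 66.1, 66.6 and 53.1 CPM in WT and at 62.9, 60.7 and 55.2 CPM in FOXO3 KO, with WT 3 the lowest. The log2 fold change was -0.14 (SE 0.26, adjusted p = 0.911) for Srm and -0.06 (SE 0.12, adjusted p = 0.923) for Sms in edgeR's quasi-likelihood test. Srm turned from -0.14 to 0.21 (SE 0.13) when WT 3 was left out, and Sms was then at -0.15 (SE 0.08).

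The catabolic enzymes varied most among the 9. Sat1, the acetyltransferase, was at 530, 592 and 245 CPM in WT and at 489, 532 and 376 CPM in FOXO3 KO. Smox, the oxidase, was at 23.3, 28.7 and 9.31 CPM in WT and at 29.6, 23.1 and 27.8 CPM in FOXO3 KO. In both, WT 3 was the lowest library, with the mean of WT 1 and 2 at 2.29 times its level for Sat1 and 2.79 times for Smox. Log2 fold changes were 0.03 (SE 0.34, adjusted p = 0.987) for Sat1 and 0.39 (SE 0.39, adjusted p = 0.867) for Smox in edgeR's quasi-likelihood test. The interval at 2 SE for Smox, 0.762-fold to 2.26-fold, was the widest of the 9 and leaves room for a change over 2-fold. Without WT 3 the values were -0.26 (SE 0.16) for Sat1 and 0.06 (SE 0.15) for Smox.

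**Figure D2:**
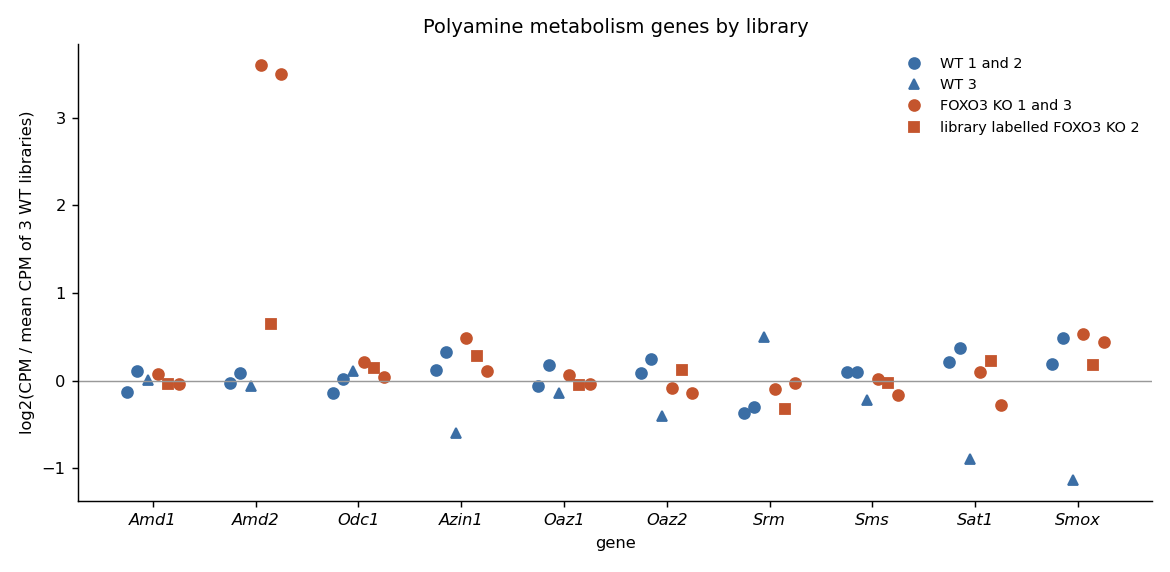
Level of each of the 10 genes in each library as log2 of its CPM over the mean CPM of the 3 WT libraries (blue WT, orange FOXO3 KO, triangle WT 3, square the library labelled FOXO3 KO 2; the grey line marks the WT mean). Amd2 in FOXO3 KO 1 and 3 stands far above all other points, and the triangles of WT 3 are the lowest points of Azin1, Oaz1, Oaz2, Sms, Sat1 and Smox.

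WT 3 was the lowest of the 6 libraries in 7 of the 10 genes (Amd2, Sms, Sat1, Azin1, Oaz1, Oaz2 and Smox) and the highest in 1 (Srm), while over all tested genes it was the lowest in 37.5% and the highest in 37.2%. WT 3 and FOXO3 KO 3 also held Xist, the RNA of the inactive X chromosome, at 31162 and 37681 counts, against 2 to 5 counts in the other 4 libraries. These 2 libraries were both below the other 4 in 4 of the 10 genes (Sms, Sat1, Azin1 and Oaz2) and both above them in 1 (Srm), beside 18.7% and 16.2% of all tested genes. Sms (chrX:157443855-157492287) and Sat1 (chrX:155213132-155216449) are X-linked. With Xist as a covariate and all 6 libraries, 0 of the 9 passed, as did 0 of all 15608 tested genes (0%). The log2 fold change was -0.05 (SE 0.08) for Sms, 0.11 (SE 0.19) for Sat1 and 0.34 (SE 0.16) for Azin1. With Xist as a covariate and without the library labelled FOXO3 KO 2, Azin1 reached 0.45 (SE 0.18, adjusted p = 0.329, edgeR's quasi-likelihood test, unadjusted p = 0.0436), beside 0.105% of 16217 genes past the adjusted threshold and 5.86% higher and 8.66% lower at the unadjusted one. B cell and mast cell markers were highest in WT 3 as well, at 5845 and 780 CPM summed, against at most 1526 and 293 CPM in the other libraries, and their part in these levels was not tested.

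The spread over the 6 libraries differed among the genes. The coefficient of variation was 6.21% for Amd1, 8.05% for Oaz1, 8.11% for Odc1, 9.20% for Sms and 15.4% for Oaz2, all under the median of 20.03% over all tested genes. It was 22.6% for Azin1, 25.4% for Srm, 27.8% for Sat1, 31.9% for Smox and 117% for Amd2. Amd1 lay at the 7.85th percentile of all tested genes and Amd2 at the 97.1st. Amd1 was the steadiest of the 10 and Amd2 the most variable. Amd2 was picked for its raised counts in some of these same libraries, so its high spread follows from that choice.

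Several of the genes varied together over the libraries, as Pearson's r of log2(CPM + 0.5) over 6 libraries that share depth and scaling. Among the largest values in size were 0.96 for Sat1 with Oaz2, 0.95 for Azin1 with Smox, 0.91 for Sms with Sat1 and -0.96 for Srm with Sat1. The pairs were named after their values were seen, and r was not computed between pairs of all tested genes. WT 3 was the lowest library in 37.5% and the highest in 37.2% of all tested genes, so such values are not shown to be particular to polyamine genes. Without WT 3 these became 0.90, 0.51, 0.90 and -0.83. Sat1 with Smox, the catabolic enzymes, went from 0.83 to -0.23, so that value rested on WT 3. WT 3 and FOXO3 KO 3 were both below the other libraries in Sat1, Sms and Oaz2 and above them in Srm. Values without WT 3 can thus still rest on FOXO3 KO 3.

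Per kb of transcript, a scale on which genes can be compared, the 10 genes spanned a wide range in WT. Means were 392 ± 159 CPM per kb (SD, n = 3) for Sat1, 225 ± 26.8 for Oaz1, 43.4 ± 13.3 for Azin1, 30.4 ± 6.72 for Oaz2, 28.2 ± 2.40 for Amd1 and 27.6 ± 2.33 for Odc1. They were 16.7 ± 2.06 CPM per kb for Sms, 12.8 ± 4.62 for Srm, 8.88 ± 4.34 for Smox and 0.290 ± 0.02 for Amd2. Over the 6 libraries Sat1 overlapped Oaz1, and Azin1, Oaz2, Amd1 and Odc1 overlapped each other, as did Sms with Srm and Srm with Smox. Oaz1, at 203 or more, was above every Azin1 value, of 60.6 or less. Sms, at 17.9 or less, was below every value of Odc1, of 25.1 or more. Amd2 was the lowest throughout, even at 3.52 CPM per kb in FOXO3 KO 1 and 3.27 in FOXO3 KO 3, under the lowest Smox value of 4.05.

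**Figure D3:**
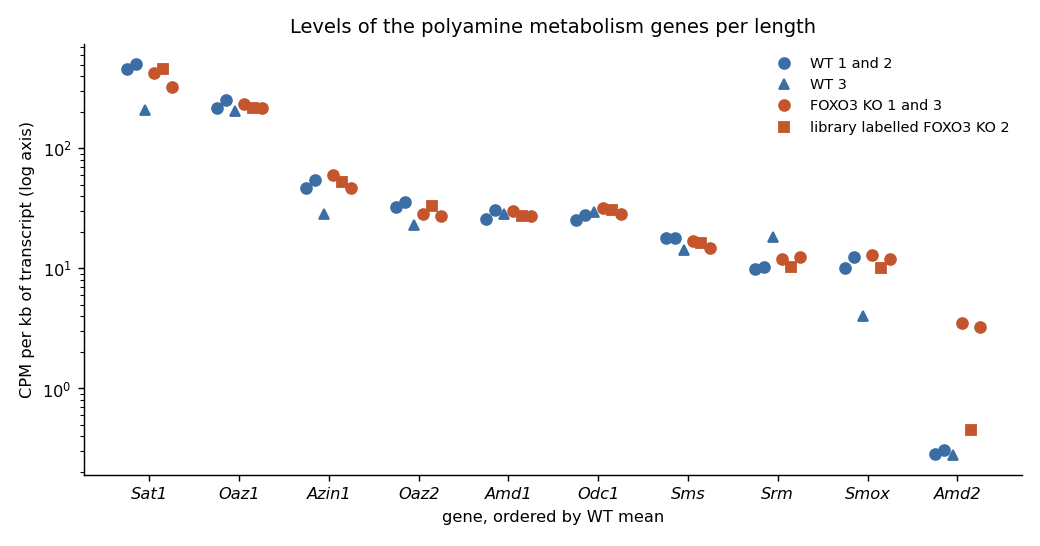
Level of each gene in CPM per kb of its longest coding transcript (log axis), ordered by the WT mean, with 1 point per library (blue WT, orange FOXO3 KO, triangle WT 3, square the library labelled FOXO3 KO 2). Sat1 and Oaz1 lie above 200 CPM per kb in every library, and Amd2 lies below all other genes in every library.

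The wider pathway was followed in 5 further lists, none of which had a gene past an adjusted p of 0.05 in edgeR's quasi-likelihood test with 6 libraries (0 of 38 tested, beside 0% of all). At an unadjusted p under 0.05, 1 of the 38 was higher (Mxd1) and 1 lower (Mat2b), beside 4.04% and 1.65% of all tested genes.

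Ornithine supply covers arginases, the carriers of arginine and ornithine, and other enzymes that use arginine or ornithine or their products (Oat, Otc, Agmat, Gatm), with the antizyme inhibitor Azin2. Of 11 genes 8 were tested, 5 with a positive and 3 with a negative log2 fold change, and the median was 0.42, beside -0.01 over all tested genes. Without the library labelled FOXO3 KO 2 that median was 0.12. Arg1 was at 581, 531 and 200 CPM in WT and at 596, 1134 and 464 CPM in FOXO3 KO 1, 2 and 3. Its highest value was in the library labelled FOXO3 KO 2 and its lowest in WT 3, and the groups overlapped. The log2 fold change was 0.74 (SE 0.50, adjusted p = 0.844, edgeR's quasi-likelihood test), and 0.28 (SE 0.49) without the library labelled FOXO3 KO 2.

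The list for the methionine side holds the makers of S-adenosylmethionine, the substrate of Amd1, and the salvage of methylthioadenosine, the by-product of both synthases. The list also holds Ahcy, Ahcyl1, Ahcyl2, Mtr and Bhmt, which belong to neither group. Of 14 genes 12 were tested, with a median log2 fold change of 0.04. Mat2a, the catalytic subunit of the S-adenosylmethionine synthetase outside the liver, was at 186, 198 and 257 CPM in WT and at 206, 178 and 228 CPM in FOXO3 KO, with a log2 fold change of -0.07. Mat2b, its regulatory subunit, was at 82.7, 88.9 and 86.7 CPM in WT and at 71.2, 78.2 and 71.3 CPM in FOXO3 KO. All 3 FOXO3 KO libraries were below every WT library in Mat2b, with a log2 fold change of -0.23 (SE 0.09, adjusted p = 0.839, edgeR's quasi-likelihood test). Its value was -0.27 (SE 0.11) without the library labelled FOXO3 KO 2. Mtap, which clears methylthioadenosine, was at 24.7, 24.9 and 32.7 CPM in WT and at 29.7, 27.2 and 30.8 CPM in FOXO3 KO, with a log2 fold change of 0.09. WT 3 was the highest library in both Mat2a and Mtap, and without it the values were 0.10 (SE 0.12) for Mat2a, in the other direction, and 0.25 (SE 0.09, unadjusted p = 0.0338, adjusted p = 0.552, edgeR) for Mtap.

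Catabolism and transport gave a median of 0.18 over 9 tested of 16 genes, and -0.01 without WT 3. Paox, the oxidase of acetylated polyamines, was at 22.6, 25.3 and 10.8 CPM in WT and at 23.8, 23.1 and 21.1 CPM in FOXO3 KO, with a log2 fold change of 0.21. As in Smox and Sat1, WT 3 was the lowest library, and without it the value turned to -0.07.

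The hypusine list holds the translation factor eIF5A and the enzymes that convert one of its lysines with spermidine as donor. All 4 genes were tested, all 4 had a positive log2 fold change and the median was 0.13, but without WT 3 the split was 2 and 2 and the median 0.00. Eif5a was at 308, 366 and 278 CPM in WT and at 382, 346 and 338 CPM in FOXO3 KO, with a log2 fold change of 0.16. Dhps, the deoxyhypusine synthase, was at 28.8, 35.5 and 22.6 CPM in WT and at 35.8, 28.2 and 27.2 CPM in FOXO3 KO, with a log2 fold change of 0.07. The groups overlapped in both, and without WT 3 the values were 0.09 for Eif5a and -0.07 for Dhps.

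The last list holds genes that act on Odc1 or its protein, among them MYC and its partners. Of 7 genes 5 were tested, and the median was 0.02 with 6 libraries and 0.45 without WT 3. Mxd1, which pairs with MAX in place of MYC and represses, was at 29.0, 29.96 and 23.4 CPM in WT and at 45.9, 35.8 and 40.5 CPM in FOXO3 KO. All 3 FOXO3 KO libraries were above every WT library, with the library labelled FOXO3 KO 2 the lowest of them. The log2 fold change was 0.57 (SE 0.14, unadjusted p = 0.00694, adjusted p = 0.714, edgeR's quasi-likelihood test), 0.65 (SE 0.16) without the library labelled FOXO3 KO 2 and 0.48 (SE 0.12) without WT 3. Nqo1, which binds ornithine decarboxylase, and Azin2 of the ornithine list also had all 3 FOXO3 KO libraries above every WT library. Nqo1 was at 0.748, 0.988 and 0.419 CPM in WT and at 1.38, 1.13 and 1.02 CPM in FOXO3 KO, and Azin2 at 1.41, 1.16 and 1.03 CPM in WT and at 1.63, 1.90 and 1.499 CPM in FOXO3 KO. Over the 5 lists this made 3 of 38 tested genes above and 1 (Mat2b) below, beside 7% and 5.36% of all tested genes. Myc was at 16.4, 12.6 and 67.7 CPM in WT and at 15.2, 20.4 and 25.9 CPM in FOXO3 KO, and its log2 fold change turned from -0.65 (SE 0.66) to 0.51 (SE 0.24) without WT 3. Nqo1, Azin2, Myc, Ly6g, Lyz2, S100a8, S100a9, Retnlg, Mmp8, Mmp9, Adgre1 and Cd68 were named after their values were seen.

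**Figure D4:**
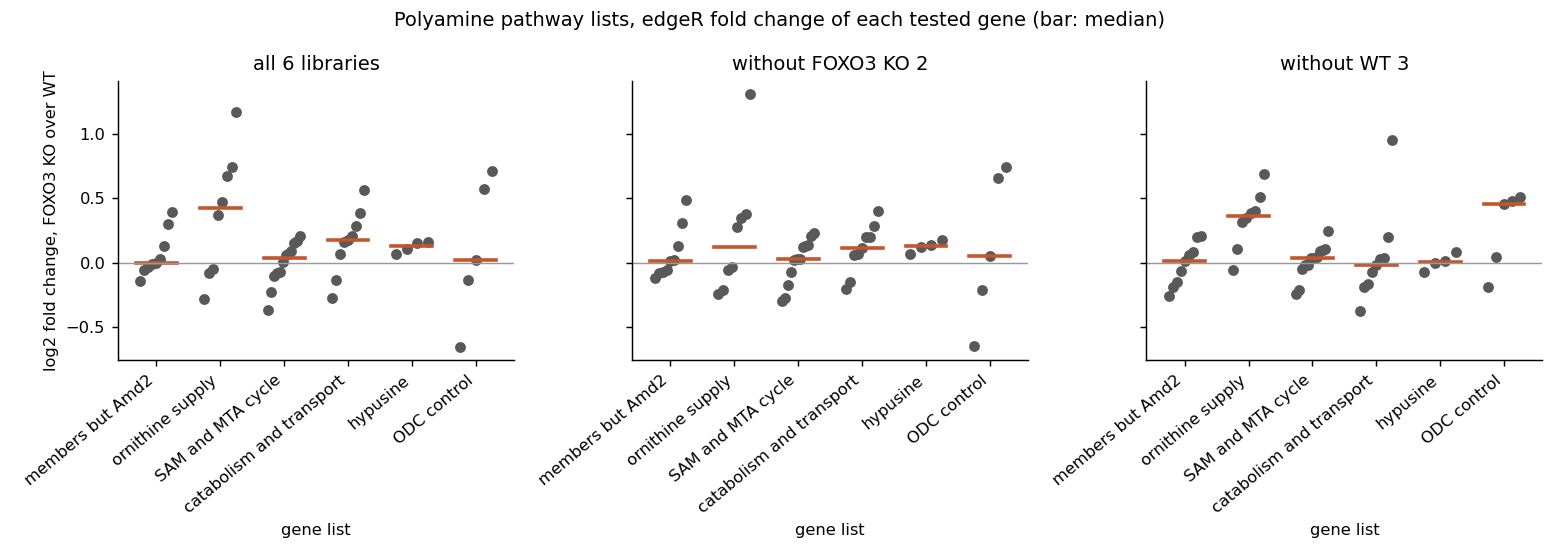
Log2 fold change of FOXO3 KO over WT from edgeR for each tested gene (grey points) of the 9 genes other than Amd2 and of the 5 pathway lists, with the list median as an orange bar, for all 6 libraries, without the library labelled FOXO3 KO 2 and without WT 3. The median of ornithine supply is 0.42 with 6 libraries and 0.12 without the library labelled FOXO3 KO 2, and that of hypusine is 0.13 with 6 and 0.00 without WT 3.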

How the data were processed

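Macrophage RNA-seq libraries of 3 WT and 3 FOXO3 KO mice were grouped by their labels. The authors deposited estimated counts per gene symbol for the 6 libraries, not normalized. Reads were paired, of 76 bases, and the submitters' processing notes name STAR 2.6.1d, kallisto 0.46.0, DESeq2 and build mm10, with no role given. Which annotation was used for counting is not given in the sources used here. Estimated counts were rounded before testing; 81.4% of the deposited values were already whole to within 0.01. Libraries held 28083393 to 36424117 counts.

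All genes were fitted with edgeR 4.0.16 in R 4.3.3 (filterByExpr, TMM, glmQLFit, glmQLFTest), and p-values were adjusted by Benjamini-Hochberg over every tested gene. The fit was tested on simulated data. SEs were obtained by dividing the log2 fold change by the root of F. CPM used TMM-scaled totals, and log2 values a pseudocount of 0.5 CPM. CPM per kb divides by the longest coding transcript of GENCODE M21. DESeq2 1.42.0, limma 3.58.1, other scalings and filters, a replicate block, an Xist covariate and each library left out were alternatives; DESeq2 and the Xist covariate without FOXO3 KO 2 were added after the data were seen. Transcripts were aligned with Biopython 1.88.

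The 10 genes and all lists were chosen with earlier results of these data known. Besides the 10 genes and Foxo3, genes were named by rule: pathway genes with an unadjusted p under 0.05, key enzymes (Arg1, Mat2a, Mtap, Paox, Eif5a and Dhps), the 5 most and 3 least correlated with Amd2, and the 2 tested genes on each side of Amd2.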

Additional observations from a re-analysis of the deposited data

How the results depend on the processing

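Under 17 alternatives, 0 of the 9 genes other than Amd2 and 0 genes of the pathway lists passed an adjusted p of 0.05. The smallest adjusted p of the 9 was 0.329 (edgeR's quasi-likelihood test, Xist covariate without FOXO3 KO 2). Only DESeq2 (0.974% of tested genes), DESeq2 without FOXO3 KO 2 (0.503%) and that Xist fit (0.105%) passed any gene. Every other alternative passed 0% of all tested genes, so 0 of the 9 followed there from the fit as a whole. The log2 fold changes of the genes nearest to 0 changed sign: Amd1 was -0.00067 with upper-quartile factors and -0.021 with library sizes alone, Sat1 was -0.073 with DESeq2 without FOXO3 KO 2, and Oaz1 was 0.010 with no filter, 0.019 with DESeq2 without FOXO3 KO 2 and 0.046 with the Xist covariate without it. With each library left out in turn, ranges were -0.063 to 0.066 for Amd1, -0.31 to 0.21 for Srm, -0.15 to 0.0017 for Sms, -0.26 to 0.27 for Sat1, -0.062 to 0.097 for Oaz1 and -0.19 to 0.11 for Oaz2. The Amd2 difference ranged from 1.70 (without FOXO3 KO 1) to 3.0 (without FOXO3 KO 2) and was 2.48 with a pseudocount of 0.1 and 1.51 with 2. The difference in the Amd2 share of the pair ranged from 5.09 to 9.61 percentage points around 6.61. The cause of these changes was not tested.

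Deviations of same-numbered libraries from their group means had r of 0.34, -0.06 and 0.57. Those of different-numbered libraries ran from -0.58 to 0.61. With so few libraries these values cannot decide whether same-numbered libraries were paired. With the replicate block, 0 of the 9 and 0 genes of the lists passed, as did 0 of all 15608 tested genes, and the log2 fold change of Amd1 was 0.0034. Depth limits Amd2 most, at 28 to 33 counts in WT, and its counts also rest on the assignment of reads shared with Amd1. The library labelled FOXO3 KO 2 and WT 3 leave few libraries per group, so wide intervals such as that of Smox do not show that a gene is unaffected.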

Other observations

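Between Amd2 and Foxo3 on chromosome 10, 31 genes were tested. Of these, FOXO3 KO 1 and 3 were above every WT library in 6 (19.4%) and below every one in 10 (32.3%), beside 10.8% and 9.24% of all tested genes. The median log2 fold change without the library labelled FOXO3 KO 2 was -0.09. That of 6 of the 31 (Lama4, Gm8055, Wasf1, Ak9, Armc2 and Gm9855) exceeded 1 in size, beside 8.41% of all tested genes but Amd2 and Foxo3. Those genes were named after their values were seen, and the counts are a description with no test. Amd1 lies in this interval at 0.02.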
